A study of Bombus terrestris with 70 samples.

Results

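Kr-h1 (Krüppel homolog 1) was followed as a single gene through 3 tissues of bumblebee queens, Bombus terrestris. Its rows were found by that symbol, and the gene was chosen with earlier results of these data known. It is 1 of the 10591 genes listed in at least 1 of the 3 deposited tables. It was present in every table, was above 0 in all 68 libraries and passed the filter on low genes in each tissue.

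Kr-h1 encodes a zinc finger transcription factor that juvenile hormone switches on. The hormone binds the receptor Met, which acts with its partner Taiman on the Kr-h1 gene. In insect larvae Kr-h1 holds back metamorphosis. In adult bumblebees juvenile hormone promotes egg production, whereas in honeybee workers it is better known for its link to foraging.

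Each library came from the brain, the fat body or the ovary of 1 queen, per the labels. Control queens (C) had their eggs taken away and put back, so they met the same disturbance. Egg removal queens (R) lost their eggs, a treatment meant to raise the costs of reproduction. Queens were taken when 10% (TP1) or 60% (TP2) of the cohort had died. The words young, old and age below stand for these time points. Each change with age compares different queens. Queens at TP2 had outlived most of the cohort, so age and survival cannot be told apart. No queen was left undisturbed, so all groups share the removal of eggs itself. The brain tables held 6 queens in each TP1 group and 5 in each TP2 group. The fat body held 4 queens in control TP2 and 6 in every other group, and the ovary held 6 in every group. Whether equal replicate numbers in different tissues mark the same queen is not stated in the labels, so Kr-h1 was not correlated between tissues.

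Values are normalized read counts, scaled within each tissue. The median ratio of a library to the average library is equal in all libraries of a table. Such values compare a gene between libraries of 1 tissue. The share of Kr-h1 in the total of its library, in ppm (normalized reads of Kr-h1 per 1 M), was used beside them. Ovary libraries had an estimated depth of 19.6 to 68.0 M reads, fat body libraries 12.1 to 60.2 M and brain libraries 24.1 to 56.0 M. Kr-h1 then rested on about 864 to 6316 reads per ovary library, 332 to 2730 per fat body library and 481 to 1513 per brain library, so counting error was small beside the spread between queens. All libraries are bulk tissue, in which fewer cells of a type and less RNA per cell cannot be told apart. Of the markers listed for the tissues, only Def, a defensin made by the fat body, carried a symbol in the tables. Its median was 87402 in fat bodies, 5289 in brains and 236 in ovaries. These counts were scaled separately in each tissue, so the medians are only a rough guide. Within fat bodies Def ran from 15900 to 1357739. Brain and ovary markers could not be looked up.

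Across tissues, Kr-h1 took the largest share of the library in the ovary and the smallest in the brain. The share ran from 31.6 to 99.0 ppm in ovaries (median 66.3, n = 24), from 10.7 to 46.8 in fat bodies (median 35.6, n = 22) and from 10.9 to 31.0 in brains (median 22.7, n = 22). The tables were scaled separately, so these levels were set side by side and not tested. The place of the ovary above the fat body also depended on the total used. With the 50 most abundant genes of each tissue left out of it, fat body egg removal TP1 had a mean of 85.4 ppm. Ovary means were then 100.4 in egg removal TP1, 73.3 in control TP1, 66.1 in egg removal TP2 and 54.3 in control TP2. In order of mean share of the whole total the 12 groups began with ovary egg removal TP1, at 85.6 ± 13.0 ppm (SD, n = 6), followed by ovary control TP1, at 62.8 ± 11.6 (SD, n = 6). Ovary egg removal TP2 (56.6 ± 15.6, SD, n = 6) and ovary control TP2 (48.7 ± 15, SD, n = 6) came next. The 4 fat body groups lay between 38.7 ± 6.19 (SD, n = 6) in egg removal TP1 and 29.2 ± 13.7 (SD, n = 4) in control TP2. The 4 brain groups closed the order, from 25.6 ± 2.94 (SD, n = 6) in control TP1 to 18.3 ± 5.92 (SD, n = 5) in control TP2. The range of every group overlapped with that of the next group in this order, which does not show that their means were alike.

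**Figure D1:**
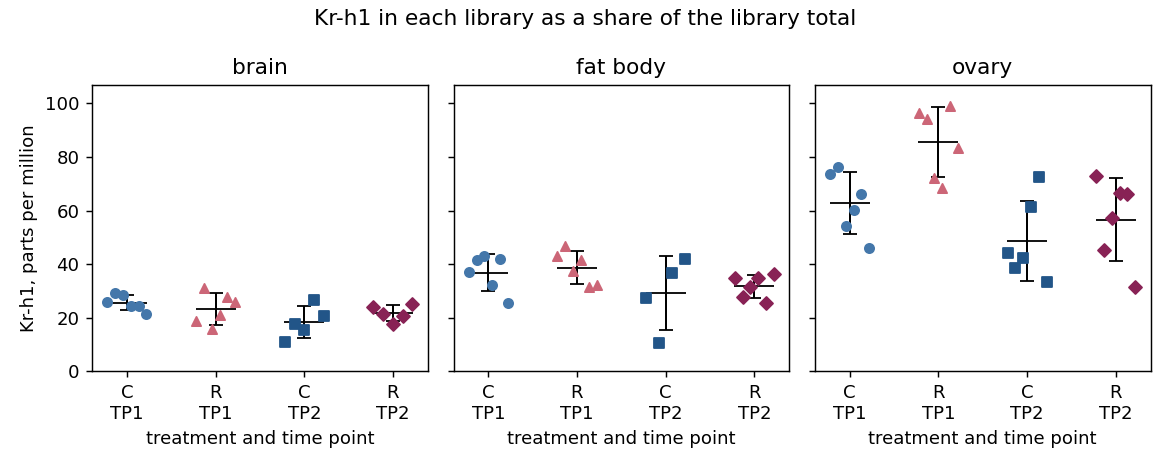
Kr-h1 as ppm of each library's total (y axis, linear, starting at 0) in control (C) and egg removal (R) queens at TP1 and TP2, with 1 panel per tissue on the same scale. Points are libraries and black bars are the mean ± SD; the highest library is at 99.0 ppm in the ovary, 46.8 in the fat body and 31.0 in the brain.

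On the scale of normalized read counts, the tissues shared the groups with the highest and the lowest mean of Kr-h1. Its highest mean was in egg removal TP1 and its lowest mean in control TP2 in all 3 tissues. The middle places differed: control TP1 came second in the brain and the ovary, and egg removal TP2 in the fat body. All 6 comparisons of egg removal with control had a positive log2 change, and all 6 comparisons of TP2 with TP1 had a negative one. These comparisons share groups and are not independent. Limma called Kr-h1 in 3 of the 12 comparisons of 2 groups, at an adjusted p under 0.05 over all genes of the comparison. An unadjusted limma p under 0.05 was reached in 7 of the 12. Many other genes reached it too. In these 7 they ranged from 286 of 10401 genes (ovary, age in egg removal) to 4496 of 10383 (fat body, treatment at TP1). In exact two-sided permutation tests of Kr-h1 alone, 6 of the 12 had a p under 0.05 after Benjamini-Hochberg adjustment over these 12. With every library scaled to the same total, limma called 0 of the 12 (3 had an unadjusted p under 0.05) and the permutation tests gave 0. That scaling moved all genes together: in the brain at TP1 it took the median gene from 0.0038 to -0.29 and Kr-h1 from 0.12 to -0.17, and Kr-h1 lay 0.12 above the median gene before and 0.11 after.

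**Figure D2:**
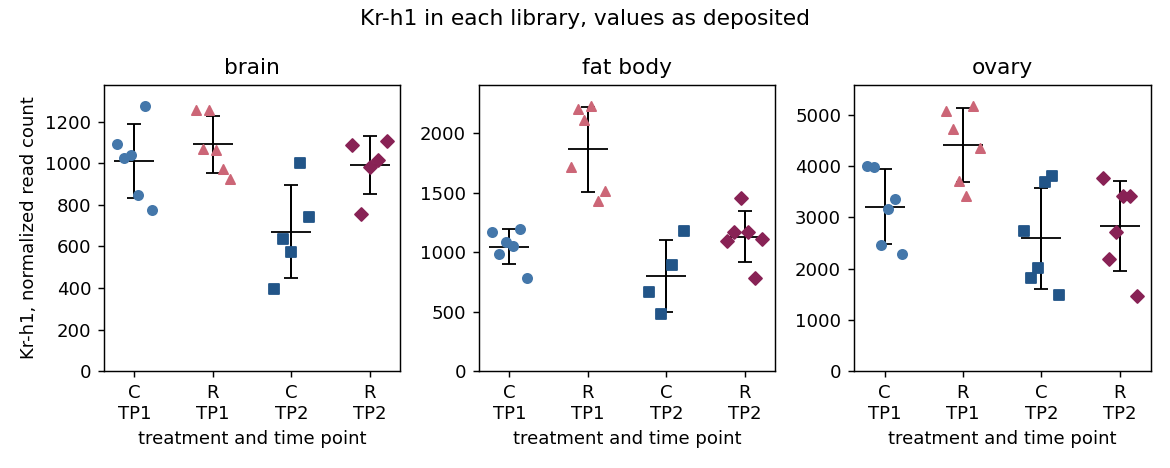
Kr-h1 as normalized read count (y axis, linear, starting at 0, with a scale of its own in each tissue) in control (C) and egg removal (R) queens at TP1 and TP2. Points are libraries and black bars are the mean ± SD; the 6 fat body libraries of egg removal TP1, at 1432 or more, lie above all 6 of control TP1, which reach 1193.

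In the fat body, the organ that makes yolk protein and stores nutrients, Kr-h1 was highest in young egg removal queens. Its normalized read count in control TP1 had a lowest value of 787, a median of 1072 and a highest value of 1193. Egg removal TP1 had a lowest value of 1432, a median of 1913 and a highest value of 2228. The groups did not overlap, and this was the single comparison of the 12 without overlap. Kr-h1 rose in egg removal by a log2 of 0.83 (95% interval 0.44 to 1.21, adjusted p = 0.00245), which is 1.77-fold, and the exact permutation p was 0.00216, the smallest that 6 against 6 allow. Adjusted over the 12 comparisons this p was 0.026. Many genes were called in this comparison: 32.4% of the 10383 fat body genes tested, 16.5% of them as higher, and 8.81% of genes had a larger log2 change than Kr-h1.

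Expressed as a share of the library, the same difference was small. Kr-h1 had 38.7 ± 6.19 ppm (SD, n = 6) in egg removal TP1 and 36.8 ± 6.84 (SD, n = 6) in control TP1, and the groups overlapped. With the same total in every library the log2 change was 0.078 (SE 0.24, adjusted p = 0.785). That scaling moved the median log2 change of all genes from -0.09 to -0.81. Kr-h1 stood 0.92 above the median gene as deposited and 0.88 above it with the same total, a distance that such scaling nearly fixes. Library totals were 39.9 to 56.7 M normalized reads in egg removal TP1 and 23.7 to 32.9 M in control TP1. The 50 most abundant fat body genes held 51 to 59% of the total in egg removal TP1 and 31.5 to 43.9% in control TP1. With those 50 genes left out of the total, a scaling chosen after the values were seen, the log2 change of Kr-h1 was 0.51 (adjusted p = 0.0468). Estimated depth also differed, at 35.5 to 58.3 M reads in egg removal TP1 and 14.1 to 49.5 M in control TP1, and with depth as a covariate the log2 change was 0.62 (adjusted p = 0.0430). The part of library totals, of the abundant genes and of depth in the deposited difference was not tested.

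**Figure D3:**
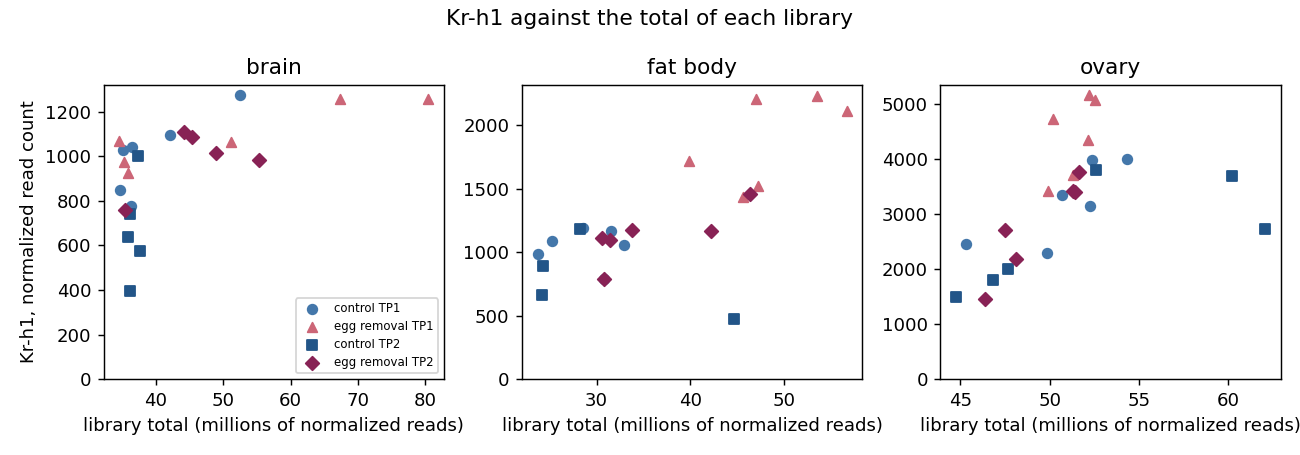
Kr-h1 as normalized read count (y axis, starting at 0) against the total of each library in M normalized reads (x axis, not starting at 0), 1 panel per tissue and 1 point per library, with shape and colour for the group. In the fat body the 6 egg removal TP1 libraries have totals of 39.9 M or more, and those of control TP1 reach 32.9 M.

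Later in the life of the cohort the fat body groups overlapped. Control TP2 had Kr-h1 counts of 478, 662, 893 and 1181. Egg removal TP2 had a lowest value of 787, a median of 1141 and a highest value of 1457. The log2 difference of 0.55 (95% interval 0.12 to 0.98) did not pass the test (adjusted p = 0.113, exact permutation p = 0.105), in a comparison with calls in 4.6% of genes. Single control libraries moved it both ways. Without control TP2 replicate 5, the highest of its group, the log2 difference was 0.76 (adjusted p = 0.0201), and without replicate 2, the lowest, it was 0.33 (adjusted p = 0.296).

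With age, Kr-h1 fell in the fat body of egg removal queens by 0.72 on the log2 scale (95% interval -1.11 to -0.34, adjusted p = 0.0296, exact permutation p = 0.00433). The count went from 1868 ± 357 (SD, n = 6) at TP1 to 1132 ± 214 (SD, n = 6) at TP2, and 1 library of TP2, at 1457, overlapped with those of TP1. In this comparison 5.99% of genes were called, 3.43% as lower, and 5.6% of genes had a more negative change than Kr-h1. Leaving out 1 library at a time, the call was lost in 5 of 12 fits. These were the fits without replicate 2, 3 or 4 of egg removal TP1 (-0.67, -0.68 and -0.67) and without replicate 1 or 5 of egg removal TP2 (-0.72 and -0.62). With the same total it was lost as well (-0.28, adjusted p = 0.385). The distance of Kr-h1 from the median gene, which such scaling nearly fixes, was -0.76 as deposited and -0.74 with the same total. In control queens the log2 change with age was -0.45 (95% interval -0.88 to -0.01, adjusted p = 0.259, 1.24% of genes called), from 1046 ± 148 (SD, n = 6) to 803.4 ± 304 (SD, n = 4). The difference between these changes, -0.28 (95% interval -0.86 to 0.31, adjusted p = 0.653, 1.05% of genes called), was not told apart from 0.

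In the brain, Kr-h1 stood out by low values in old control queens. Control TP2 had counts of 395, 575, 638, 742 and 1000.3. Egg removal TP2 had 758, 981, 1017, 1088 and 1107. At TP1, control had a lowest value of 776, a median of 1035 and a highest value of 1275, and egg removal had 926, 1068 and 1257. Only control TP2 held libraries under 750, 4 of its 5, and its highest library lay inside the range of the other 3 groups.

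At TP2 brain Kr-h1 was higher in egg removal by a log2 of 0.62 (95% interval 0.24 to 0.99, adjusted p = 0.0403), which is 1.53-fold, with an exact permutation p of 0.0238, adjusted over the 12 comparisons to 0.0476. Here 8.57% of the 10388 brain genes were called, 3.68% as higher, and 5.48% of genes had a larger change than Kr-h1. The call was near the threshold. It was lost without replicate 1 or 2 of control TP2 and without replicate 1, 3, 4 or 5 of egg removal TP2, at log2 differences of 0.44, 0.61, 0.58, 0.62, 0.60 and 0.57. It was also lost with the same total in every library (0.31, adjusted p = 0.408), a scaling that moved the median gene of this comparison to -0.30. A fit of the 2 groups alone lost it too (0.62, adjusted p = 0.118).

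The log2 change of brain Kr-h1 with age was -0.64 in control queens (95% interval -1 to -0.27, adjusted p = 0.0529), just short of the threshold. The exact permutation p was 0.0173, and 0.0468 after adjustment over the 12 comparisons. In that comparison 2.57% of genes were called, and 3.21% of genes had a more negative change. Leaving out replicate 6 of control TP1 (adjusted p = 0.0468) or replicate 4 of control TP2 (adjusted p = 0.0143) brought it under the threshold. Egg removal queens had a log2 change with age of -0.14 (95% interval -0.51 to 0.22, adjusted p = 0.994, 0.0481% of genes called). The difference between the changes of the treatments was 0.49 (95% interval -0.02 to 1.01, adjusted p = 0.999, unadjusted p = 0.0584), and limma called 0 of the genes on this difference (446 had an unadjusted p under 0.05). At TP1 the log2 difference between treatments was 0.12 (95% interval -0.23 to 0.47, adjusted p = 0.749, 2.37% of genes called).

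A property of the brain libraries moved with these counts, and its relation to the share in ppm depended on the total used. In 9 of the 22 brain libraries LOC100644055 was the most abundant gene, and these had Kr-h1 counts of 981 to 1275. The other 13 had 395 to 1070. None of the 5 control TP2 libraries, 4 of the 5 egg removal TP2, 2 of the 6 control TP1 and 3 of the 6 egg removal TP1 libraries belonged to the former. Among the 13, Kr-h1 lay between 776 and 1042 in the 4 of control TP1, between 926 and 1070 in the 3 of egg removal TP1, between 395 and 1000.3 in the 5 of control TP2 and at 758 in the 1 of egg removal TP2. In a fit of these 13, an alternative chosen after the values were seen, the log2 difference between treatments at TP2 was 0.24 (SE 0.35, adjusted p = 0.799) and the log2 change of control queens with age was -0.52 (SE 0.21, adjusted p = 0.198), neither of them called. The egg removal TP2 library in that fit stands alone and is assumed to vary like the others.

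LOC100650436, the most abundant gene in 18 of the 22 fat body libraries, moved with brain Kr-h1 as well. In the brain its count ran from 498 to 7000 in control TP2, from 1975 to 195884 in control TP1, from 49669 to 1013122 in egg removal TP1 and from 19706 to 366381 in egg removal TP2. Its Pearson r with Kr-h1 over the 22 brain libraries was 0.84, the second highest of 8660 genes, with a Spearman rho of 0.77 and an r of 0.69 for deviations from the group means. In the fat body itself r was 0.77 (rank 525 of 7652 genes) and in the ovary it was 0.01. As ppm, r was 0.52 in the fat body and 0.35 in the brain. Def, the fat body marker, had a brain count of 935 to 74961 in control TP2 (median 20470) and of 578 to 12981 in egg removal TP2 (median 2371), with medians of 5515 in control TP1 and 2782 in egg removal TP1. The part of LOC100644055, LOC100650436 and Def in the brain result was not tested.

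**Figure D4:**
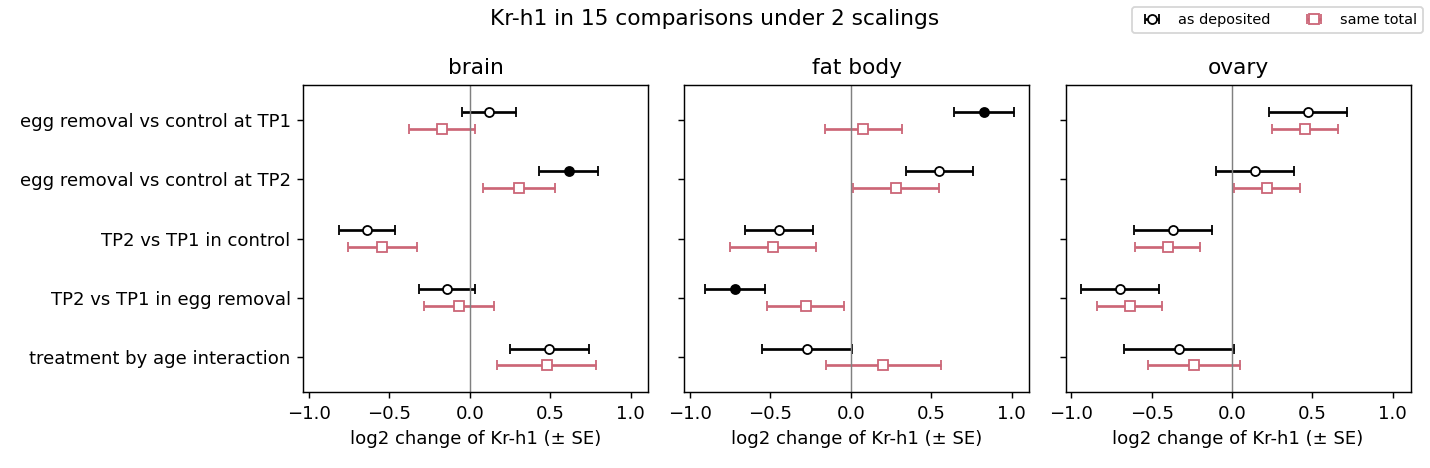
Log2 change of Kr-h1 (x axis, ± SE) in the 5 comparisons of each tissue, with values as deposited (black circles) and with every library scaled to the same total (red squares). Filled symbols have an adjusted p under 0.05; 3 of the 15 are filled as deposited and none with the same total, and the fat body comparison at TP1 moves most, from 0.83 to 0.078.

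In the ovary, where the eggs grow, Kr-h1 had its highest mean in young egg removal queens, and its means were lower at TP2 in both treatments. A pair of libraries, control TP2 replicates 1 and 4, stood apart. Their estimated depth was 19.6 and 23.7 M reads, against 43.6 M or more in the other 22, their 50 most abundant genes held 7.96 and 6.86% of the total, against 9.86 to 15.4%, and their totals were the highest. Their Kr-h1 counts were 2735 and 3697. Control TP1 had a lowest count of 2291, a median of 3257 and a highest of 4005. Egg removal TP1 had 3417, 4541 and 5167. Control TP2 had 1492, 2371 and 3805, and egg removal TP2 had 1464, 3061 and 3765. Egg removal TP1 overlapped with each of the other groups, and only it held libraries above 4005, 4 of its 6.

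The log2 difference of ovary Kr-h1 between treatments at TP1 was 0.47 (95% interval -0.03 to 0.97), which did not pass the limma test (adjusted p = 0.498). Limma called 0 of the 10401 ovary genes there (1111 had an unadjusted p under 0.05, and a limma fit with weights per library called 678), although the exact permutation p of Kr-h1 was 0.0195, and 0.0468 after adjustment over the 12 comparisons. The limma fit takes 1 spread per gene from all 4 ovary groups, and Kr-h1 varied by 16.3% of its mean between queens of egg removal TP1 and by 38.1% in control TP2. The ovary result changed little with scaling: with the same total the log2 difference was 0.46 and the exact permutation p 0.0152, although 0.0909 after adjustment. At TP2 the difference was 0.14 (95% interval -0.36 to 0.64, adjusted p = 0.623). That comparison had calls in 58.9% of ovary genes, and Kr-h1 was not among them. With weights per library the log2 difference at TP2 was 0.61 (adjusted p = 0.00639), and without control TP2 replicates 1 and 4, left out after the values were seen, it was 0.34 (adjusted p = 0.301).

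With age, the ovary count of egg removal queens went from 4408 ± 720.3 (SD, n = 6) to 2824 ± 879 (SD, n = 6). This is a log2 change of -0.70 (95% interval -1.20 to -0.19) with an unadjusted limma p of 0.00866 and an exact permutation p of 0.0108, adjusted over the 12 comparisons to 0.0433. After adjustment over all genes limma gave 1, and it called 0 genes there (286 had an unadjusted p under 0.05, and the fit with weights called 227). Kr-h1 ranked 52 of 10401 genes by p, and 2.89% of genes had a more negative change. Control queens had a log2 change with age of -0.37 (95% interval -0.87 to 0.14, adjusted p = 0.191), in a comparison in which 61.8% of genes were called. With weights per library this was -0.75 (adjusted p = 0.00251), and without control TP2 replicates 1 and 4 it was -0.56 (adjusted p = 0.0812). The difference between the changes of the treatments was -0.33 (95% interval -1.04 to 0.38, adjusted p = 0.453, 34.9% of genes called), and -0.14 without that pair (adjusted p = 0.799). Ovary counts of Def also differed between the groups, with medians of 5454 in control TP2, 292 in control TP1, 209 in egg removal TP2 and 71.3 in egg removal TP1, and its part in the Kr-h1 values was not tested.

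After the shared highest and lowest groups had been seen, each treatment and each time point was also averaged over the other factor. The change with age, as the mean of both treatments, was -0.53 in the ovary (SE 0.17, adjusted p = 0.0155) and -0.58 in the fat body (SE 0.14, adjusted p = 0.0237), so Kr-h1 fell in both. It was -0.39 in the brain (SE 0.12, adjusted p = 0.0803, 3.63% of genes called). The ovary change stayed called without any 1 of the 24 libraries, between -0.59 and -0.44, and with the same total (-0.52, adjusted p = 0.0075), and it was -0.63 without control TP2 replicates 1 and 4 (adjusted p = 0.00878). In this averaged comparison 47.3% of ovary genes were called, 23.5% as lower, and 4.66% of fat body genes, 2.53% as lower. The fat body call was lost without control TP2 replicate 1 (-0.55, adjusted p = 0.0614) and with the same total.

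Averaged over the time points, Kr-h1 was higher in egg removal by a log2 of 0.69 in fat bodies (SE 0.14, adjusted p = 0.00112) and 0.37 in brains (SE 0.12, adjusted p = 0.040). The ovary difference was 0.31 (SE 0.17, adjusted p = 0.145, 44.1% of genes called), and without egg removal TP2 replicate 6 it was 0.40 (adjusted p = 0.045). Calls made up 34.2% of fat body genes, 17.1% as higher, and 20.2% of brain genes, 10.3% as higher. The fat body call was kept without any 1 of the 22 libraries. In the brain it was lost in 15 of 22 such fits, with a highest adjusted p of 0.0703. The 7 fits that kept it left out replicate 1 or 5 of control TP1, 4 or 6 of control TP2, 5 or 6 of egg removal TP1, or 2 of egg removal TP2. With the same total the log2 differences were 0.18 (fat body) and 0.067 (brain), and neither was called.

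Relative to the mean count, the spread of Kr-h1 between queens was widest in old control queens of every tissue. The coefficient of variation in control TP2 was 38.1% for ovaries, 37.8% for fat bodies and 33.3% for brains. The other groups had 16.3 to 31.1% for ovaries, 14.2 to 19.1% for fat bodies and 12.7 to 17.7% for brains. In the fat body the SD itself was larger in egg removal TP1 (357) than in control TP2 (304). Control TP2 had 4 fat body libraries, and its ovary group held replicates 1 and 4, which had the lowest estimated depth of that tissue. Whether the relative spread differed between groups was not tested.

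Genes with a pattern like that of Kr-h1 were ranked in each tissue by Pearson r of log2 values over all libraries, among genes with a mean of at least 100. These r are descriptions of genes picked from 7652 to 8684, and part of each comes from shared group differences. In the brain LOC105667137 was most like Kr-h1, with r = 0.88 over 22 libraries, rho = 0.83 and r = 0.81 for deviations from the group means. Its count was 189 ± 182 (SD, n = 5) in control TP2 and 279.6 ± 28.8 (SD, n = 5) in egg removal TP2. At TP1 it was 408.6 ± 212 (SD, n = 6) in control and 383.3 ± 115 (SD, n = 6) in egg removal. LOC100650436 (0.84) and LOC100642856 (0.83) followed. The most opposite brain genes were LOC100647213 (-0.86) and LOC100647746 (-0.85), and as ppm both had a weakly positive r (0.12 and 0.15).

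In the fat body 368 of 7652 genes had an r above 0.8, against 12 of 8660 brain genes and 11 of 8684 ovary genes. For deviations from the group means these counts were 30, 1 and 6. LOC100646163 led with r = 0.95 over 22 libraries, and 0.84 for deviations from the group means. Its rho was 0.83, which ranked 252 of the 7652 genes. Its count was 1328 ± 221 (SD, n = 6) in egg removal TP1 and 794.7 ± 64.7 (SD, n = 6) in control TP1, then 897.2 ± 159 (SD, n = 6) and 597.3 ± 167 (SD, n = 4) at TP2. Next came LOC100651024 (0.94) and LOC100649777 (0.94). As ppm these 3 kept an r of 0.92, 0.89 and 0.86. LOC100647833 (-0.92) and LOC100646072 (-0.92) were the most opposite, with r of -0.56 and -0.26 as ppm.

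In the ovary LOC100650136 was most like Kr-h1 (r = 0.85 over 24 libraries, rho = 0.69, and 0.77 without the 2 libraries farthest from the median of Kr-h1). LOC100645878 (0.84) had the highest rho of all ovary genes, 0.86, and LOC100645219 followed (0.83). Deviations from the group means gave 0.84, 0.81 and 0.83 for these 3. LOC100648709 (-0.80) and LOC100649238 (-0.79) were the most opposite. No gene was named in more than 1 tissue by this ranking.

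**Figure D5:**
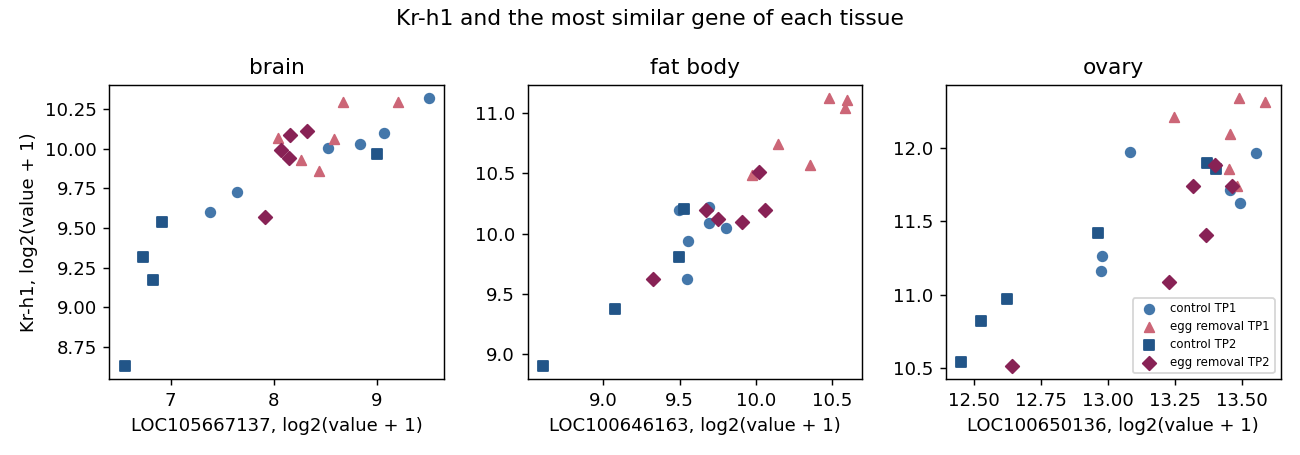
Kr-h1 (y axis) against the gene with the highest Pearson r in each tissue (x axis), both as log2 of the normalized read count plus 1, 1 point per library with shape and colour for the group. The r is 0.88 for LOC105667137 in the brain, 0.95 for LOC100646163 in the fat body and 0.85 for LOC100650136 in the ovary.

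Over the 12 group means of log2 ppm, which mainly follow the tissues, LOC100644484 was nearest to Kr-h1 among 7306 genes (r = 0.96). It had a mean of 109.1 ppm in the ovary, 35.6 in the fat body and 18.4 in the brain. LOC100642786 and LOC100648252 followed, both with r = 0.95. After the mean of each tissue had been removed, r was 0.76, 0.62 and 0.62.

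Kr-h1 lies between 2 non-coding genes in the RefSeq gene order of the assembly iyBomTerr1.2, LOC125384979 and LOC125384978, neither of which had a row in the tables used here. The nearest 6 protein-coding genes in that order were LOC100644840, LOC100650061 and LOC100644957 on one side and LOC100645626, LOC100645867 and LOC100645438 on the other. They were picked by position after the values of Kr-h1 were seen. In the fat body at TP1, LOC100650061 was higher in egg removal by a log2 of 0.63 (adjusted p = 0.0219) and LOC100644840 lower by -0.31 (adjusted p = 0.0428), and the other 4 were not called, in a comparison that called 32.4% of all fat body genes. None of the 6 was called in the brain in any of the 5 comparisons, where their log2 changes lay between -0.13 and 0.15. In the ovary of control queens LOC100645438 (-1.76), LOC100644840 (-0.75) and LOC100645626 (-0.25) fell with age, 3 of 6 in a comparison that called 61.8% of all ovary genes. At TP2 LOC100645438 (1.87) and LOC100644840 (0.78) were higher in egg removal, 2 of 6 where 58.9% were called, and both were called on the interaction (1.54 and 0.60), where 34.9% were. LOC100650061 had an r of 0.85 with Kr-h1 over the fat body libraries and 0.41 in the brain and 0.31 in the ovary.

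Def, the antimicrobial peptide gene of the fat body, ran against Kr-h1 in that tissue. Its Pearson r with Kr-h1 was -0.72 over 22 fat body libraries (rho -0.66, and -0.47 for deviations from the group means). In the ovary r was -0.55 (rho -0.62, and -0.26 for deviations from the group means). The brain r of -0.31 rested on 2 libraries: without the 2 farthest from the median of Kr-h1 it was 0.049, and rho was -0.076.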

How the data were processed

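Messenger RNA libraries (stranded kit, 2 lanes each, per the labels) were represented by 1 table per tissue, with columns for 68 of the 70 labelled samples; fat body control TP2 replicates 4 and 6 had none. The authors deposited a signal per gene: read counts after normalization, with decimals, so no count model was used. The submitters' processing notes name kallisto 0.46.1, R 4.0.1 and DESeq2 1.28.1, without saying which step each made. The transcriptome, the annotation, the gene filter and the use of strand are not known from the labels or headers. Equal median ratios in all columns of a table show scaling within each tissue. Genes sharing reads with a near-identical copy cannot be recognised.

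Genes with a mean of at least 1 in at least 1 group were taken as log2(value + 1). Limma 3.58.1 (R 4.3.3, trend and robust) estimated 4 group means per tissue, and p-values were adjusted by Benjamini-Hochberg over all genes of each comparison. Kr-h1 alone was tested by exact two-sided permutation (SciPy 1.17.1). Depth was estimated as a library's total over the value of 1 read, the median of nonzero values below 1.6 times its value of rank 10. The fit was tested on simulated data. No 2 libraries were identical. Named genes were Kr-h1, the 3 most and 2 least correlated genes of each tissue and the 3 nearest over group means; the other genes were chosen after their values were seen. Planned lists of juvenile hormone, ecdysone, insulin and yolk genes could not be built. Only 9 genes carry a symbol other than a LOC identifier, and of all listed names only Kr-h1 and Def were found. Members and lists were chosen with earlier results of these data known. No sequence of Kr-h1 was used here.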

Additional observations from a re-analysis of the deposited data

How the results depend on the processing

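Kr-h1 was recomputed in the 15 comparisons under other values added before the logarithm, no filter, other scalings, weights, covariates and sample sets. Counting the averaged comparisons, 164 of 186 such values kept direction and side of the threshold, as did 308 of 340 with 1 library left out. Results that stayed uncalled count as kept, so these counts say little about the calls. The brain call at TP2 was kept in 8 of 12 settings and in 4 of 10 fits without 1 library. For the fat body these were 10 of 11 and 12 of 12 (treatment at TP1), and 8 of 11 and 7 of 12 (age in egg removal). The cause of the changes was not tested.

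A total, with or without the 50 most abundant genes, scales each library by 1 factor. Distances from the median gene were thus nearly fixed in advance. Scaling to the same total moved all genes together. The brain difference between treatments at TP1 became -0.17 with the median gene at -0.29, so Kr-h1 lay 0.11 above it, against 0.12 as deposited, and the difference at TP2 was no longer called (0.31). The fat body lost its calls for treatment at TP1 (0.078) and for age in egg removal (-0.28), and its interaction became 0.20 with the median gene at 0.47, a distance of -0.27 against -0.29 as deposited. The averaged treatment differences (brain 0.067, fat body 0.18) and the averaged fat body change with age (-0.38) lost theirs, and permutation tests under 0.05 went from 6 to 0. With the 50 most abundant genes outside the total, chosen after the data were seen, the fat body age change was not called (-0.57), the fat body interaction became 0.028 (median gene 0.30, distance -0.28) and the brain age change in control was called (-0.67). It was also called with quantile normalization (-0.61) and with depth as a covariate (-0.88), while quantile normalization lost the fat body age change in egg removal (-0.61). Weights per library called the ovary differences at TP2 (0.61) and with age in control (-0.75) and egg removal (-0.53), and turned the ovary interaction to 0.21. Without the 2 shallow ovary libraries, a fit chosen after the data were seen, no ovary call changed. The brain difference at TP2 was not called in a fit of the 2 groups alone (0.62) or of the 13 libraries not led by LOC100644055 (0.24), where egg removal TP2 has 1 library left and a missed call says little.

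The correlation of same-numbered deviations lay between -0.54 and 0.66 and exceeded 0.1 in 23 of 64 pairs. Libraries of unequal number were not correlated for reference, so these values cannot decide whether equal numbers mark pairs. With the replicate block the brain difference at TP2 (0.56) and the averaged brain treatment difference (0.34, adjusted p = 0.0885, a fit added after the data were seen) were not called, and the other 19 comparisons kept their side of the threshold.

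Without any 1 library, the log2 values of the brain ranged from 0.05 to 0.19 (treatment TP1), 0.44 to 0.78 (treatment TP2), -0.80 to -0.46 (age, control), -0.19 to -0.05 (age, egg removal) and 0.32 to 0.66 (interaction). Fat body ranges were 0.75 to 0.90, 0.33 to 0.76, -0.66 to -0.22, -0.80 to -0.62 and -0.50 to -0.06, and ovary ranges 0.38 to 0.54, 0.0025 to 0.32, -0.49 to -0.22, -0.79 to -0.52 and -0.47 to -0.15, in the same order. Averaged over time points the treatment ranges were 0.28 to 0.45 (brain), 0.58 to 0.79 (fat body) and 0.24 to 0.40 (ovary), and the averaged age ranges -0.47 to -0.30, -0.69 to -0.47 and -0.59 to -0.44. Among the 3 genes most like Kr-h1, Spearman ranking kept 1 in the ovary and 0 in each other tissue.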
